A study of Homo sapiens and Mus musculus with 99 samples.

Results

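The genes described are 41 receptors and receptor subunits for cytokines that lung epithelium can answer to, found by symbol among the 57820 gene IDs of the human count tables, with 1 ID for each. They cover the IL-1, IL-17, gp130, IL-10 and interferon receptor families, the receptors for IL-4, IL-13, IL-7, TSLP and IL-15, 6 members of the TNF receptor superfamily and both TGF-beta receptors. RNA was sequenced from NCI-H1437 and NCI-H292, human epithelial lines derived from lung cancers, 4 h after treatment. There were 51 libraries in 6 experiments: H1437-1 to H1437-4 in NCI-H1437 (35 libraries in 16 groups) and H292-1 and H292-2 in NCI-H292 (16 libraries in 8 groups). Each group held 2 libraries, except the 3 groups of H1437-1, which held 3.

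Every experiment had its own mock control, the buffer DPBS. H1437-1 compared ALT, an extract of the mould Alternaria alternata, with ALT plus an agent labelled Tra, which the table names call a MEK inhibitor. H1437-2 compared Aeg-S, Aeg-L, both proteins together (Aeg-S/L) and Aeg-S/L plus Tra. H1437-3 and H292-2 compared Aeg-S/L alone, with BAPTA-AM (a cell-permeant calcium chelator) and with EGTA (a chelator that stays outside the cell). H1437-4 and H292-1 compared extracts of wild-type mould (WT ALT) with extracts labelled aegs KO ALT and aegl KO ALT. No group received Tra, BAPTA-AM or EGTA without a stimulus, so what the additions do alone was not measured. All groups were cultures of an established cancer line rather than primary epithelium. The labels do not say whether libraries of a group came from separate cultures, and p-values measure the spread between these libraries, which may be technical.

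Cytokine receptors share subunits, so a cell's set of receptor chains decides which ligands it can read. IL6ST (gp130) pairs with IL6R, IL11RA, LIFR, OSMR or IL27RA; IL1RAP is the common partner of IL1R1, of the IL-33 receptor IL1RL1 and of the IL-36 receptor IL1RL2; and IL4R joins IL13RA1 to read IL-4 and IL-13. Most of these chains signal through JAK kinases and STAT factors, the IL-1 and IL-17 receptors through MYD88 or TRAF3IP2, death receptors such as TNFRSF10A and TNFRSF10B through FADD and CASP8, and TGFBR1 and TGFBR2 through SMAD factors. Airway epithelium is known to use them to answer type 2 cytokines, alarmins, interferons and signals of injury.

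For orientation in the results that follow, the 250 bases before the transcription start are shown for 4 receptors. IL4R and IFNGR2 carry matches to an NF-kB type motif. IL4R rose under the stimuli in all 6 experiments. IFNGR2 rose in 3 of the 4 experiments of NCI-H1437 and, in NCI-H292, under Aeg-S/L but not under WT ALT. TNFRSF21 rose without a match, and IL6R was the receptor with the largest fall. Sequences are from RefSeq on GRCh38.p14, whereas the counts were made on hg19, and capitals mark the NF-kB type matches. IL4R lies at chr16:27313724-27313973 (plus strand), IFNGR2 at chr21:33403163-33403412 (plus), TNFRSF21 at chr6:47309906-47310155 (minus) and IL6R at chr1:154405093-154405342 (plus).
IL4R: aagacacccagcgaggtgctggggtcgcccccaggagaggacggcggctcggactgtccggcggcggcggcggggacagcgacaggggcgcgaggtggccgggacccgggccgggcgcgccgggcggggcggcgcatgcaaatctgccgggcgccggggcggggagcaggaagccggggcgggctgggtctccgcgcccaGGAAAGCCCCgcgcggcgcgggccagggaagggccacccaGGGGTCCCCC
IFNGR2: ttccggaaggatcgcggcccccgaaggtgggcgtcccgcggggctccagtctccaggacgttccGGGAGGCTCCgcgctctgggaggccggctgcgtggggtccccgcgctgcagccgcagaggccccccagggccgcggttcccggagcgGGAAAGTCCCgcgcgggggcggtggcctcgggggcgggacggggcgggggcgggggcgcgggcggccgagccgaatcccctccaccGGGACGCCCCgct
TNFRSF21: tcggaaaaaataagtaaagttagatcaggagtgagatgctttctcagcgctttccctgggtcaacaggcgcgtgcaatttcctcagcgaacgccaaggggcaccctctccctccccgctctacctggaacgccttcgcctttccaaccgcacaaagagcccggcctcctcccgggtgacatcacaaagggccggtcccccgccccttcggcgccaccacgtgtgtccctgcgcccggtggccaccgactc
IL6R: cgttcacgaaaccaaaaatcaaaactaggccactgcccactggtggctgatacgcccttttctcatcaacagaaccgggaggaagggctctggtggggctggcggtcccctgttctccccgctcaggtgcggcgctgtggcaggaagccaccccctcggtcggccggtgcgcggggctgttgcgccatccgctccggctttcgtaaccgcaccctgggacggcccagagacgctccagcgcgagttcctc
Of the 41 genes, 33 had a promoter entry, with 60 entries in all, since some genes have several starts. The 4 genes shown have 1 entry each. Both strands of these 250 bases were searched for AP-1 (TGANTCA), CRE (TGACGTCA), STAT (TTCNNNGAA), ETS (CCGGAAGT) and an NF-kB type motif, each counted on its own where matches overlap. In the first entry of each gene, the NF-kB type motif was present for 5 of 33 receptors (15.2%: IL4R, IL6ST, IL22RA1, IL27RA and IFNGR2), against 9.57% of 27305 genes. In any entry it was present for 10 (30.3%), IL1R2, IL18R1, IL11RA, IL15RA and TGFBR1 being added, against 11.8% of all genes. The number of entries differs between genes, and a gene with more entries has more bases searched. STAT matches stood in the first entry of LIFR, IL15RA and IFNLR1 (9.09%, against 6.78% of all genes) and in another entry of IL1R1 (12.1% with a match in any entry, against 8.09%). AP-1 matches stood in the first entry of IL1RL1 and IL22RA1 (6.06% against 6.6%) and in other entries of IL15RA (9.09% in any entry, against 8.06%). CRE and ETS matches were found in 0 of the 33, in any entry, where 2.03% and 4.13% of all genes held one. Such matches describe letters only.

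Libraries held 32.4 to 53.2 M counts. Epithelial markers were high in both lines (EPCAM at 669 TPM in NCI-H1437 and 398 in NCI-H292; TPM are levels per gene length and library), while PTPRC, CD3E and LYZ, which mark leukocytes, stayed under 0.1 TPM. Of 5 mesenchymal markers, VIM and COL1A2 were at or near 0 in both lines. COL1A1 stood at 28.5 TPM in NCI-H1437 and 11.2 in NCI-H292, CDH2 at 0 and 13.6, and FN1 at 1.95 and 1070. CDH5, an endothelial marker, reached 35.9 TPM in NCI-H292. The part of these markers in the results was not tested. The library DPBS 1 of H1437-1 stood apart from the other 2 of its group (mean correlation of log counts 0.952), with IL6ST at 16.1 against 44.7 and 62.7 CPM (counts scaled to 1e+06 per library) and TGFBR1 at 82.8 against 207 and 231. Exons overlap another gene for IFNAR2 (48.4% of bases), IL10RB (22.3%), IL11RA (17.7%), TNFRSF10A (16.6%), IL13RA1 (16.2%), IFNGR2 (12.8%) and IL6ST (8.58%), so reads there could be set aside or shared, and values of these genes are uncertain to that extent.

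At baseline both lines carried a broad set of receptor transcripts with different emphases. Of 40 receptors tested over the DPBS libraries, summed per experiment (4 experiments of NCI-H1437 against 2 of NCI-H292), 20 were higher and 15 lower in NCI-H292 at an adjusted p under 0.05. All adjusted p given are from edgeR's quasi-likelihood test with Benjamini-Hochberg adjustment over all genes of a comparison, and log2 changes stand with ± their standard error. Of all genes tested, 32.2% were higher and 32.1% lower, so most genes differed and the receptors' median absolute difference (0.95 on the log2 scale) was near that of all genes (0.84).

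The highest levels per length in NCI-H1437 were TGFBR1 (111 ± 21.5 TPM, SD over 4 experiments), TNFRSF12A (105 ± 31.9), the receptor for TWEAK, and TNFRSF1A (101 ± 6.82), the main TNF receptor. These did not differ beyond their spread. IL13RA1 (78.8), TNFRSF10B (66.6), TNFRSF21 (57.6) and OSMR (50.1) followed. In NCI-H292 the order began with TNFRSF12A (185 ± 16.9 TPM, SD over 2 experiments), followed by IFNGR1 (130 ± 8.62), TNFRSF10B (129 ± 6.05), OSMR (118 ± 13.8) and TNFRSF1A (109 ± 8.56), of which the last 4 lay within each other's spread or close to it.

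**Figure D1:**
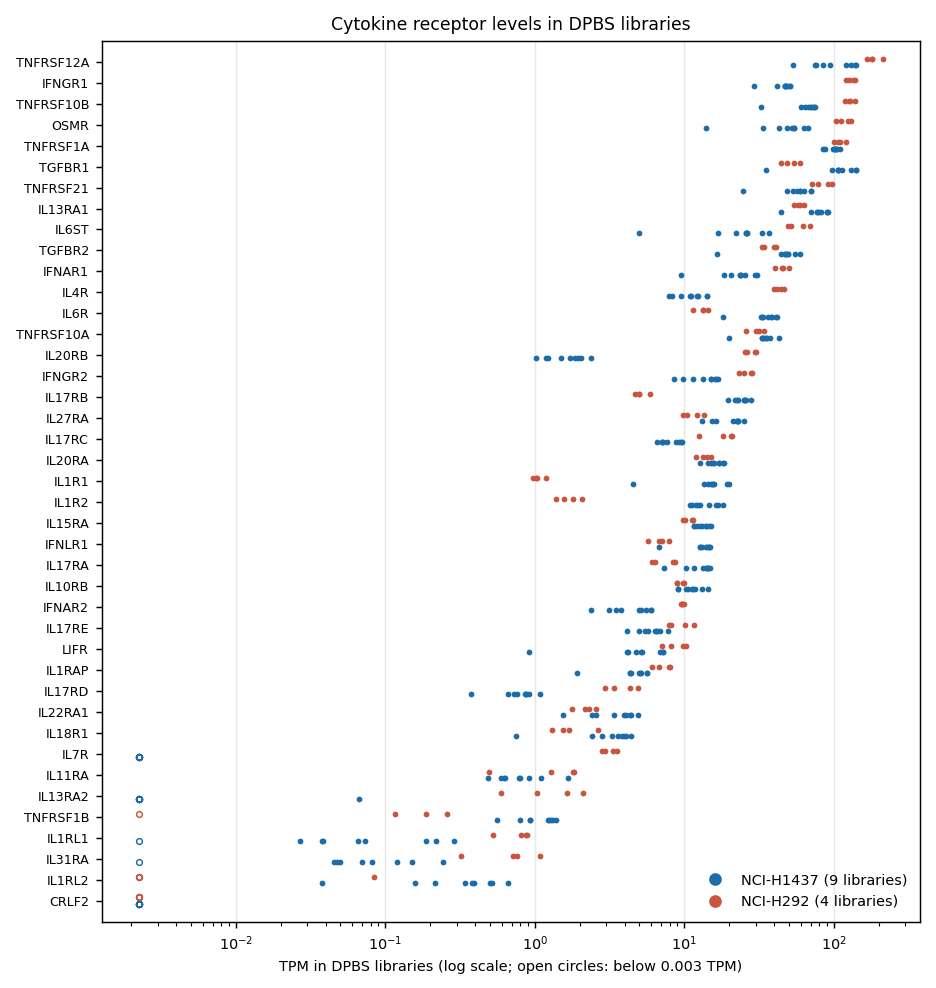
Levels of the 41 receptors in DPBS in NCI-H1437 and NCI-H292, as TPM on a log axis, with 1 point per library (9 and 4 libraries). Receptors are ordered by the higher of the mean levels of the lines. IL1R1, IL1R2 and IL17RB lie higher in NCI-H1437, and IL20RB, IL4R, IFNGR1 and IL7R higher in NCI-H292.

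The IL-1 receptors set the lines apart. IL1R1, the signalling receptor for IL-1, stood at 15.3 ± 3.56 TPM in NCI-H1437 and 1.05 ± 0.0825 in NCI-H292 (log2 difference, NCI-H292 minus NCI-H1437, -3.89 ± 0.22, adjusted p = 1.066e-07). IL1R2, the decoy receptor, was also lower in NCI-H292 (14.2 against 1.71 TPM, -3.11 ± 0.2, adjusted p = 2.652e-07). IL1RL1, the IL-33 receptor, was scarce in both, at 0.111 and 0.771 TPM (2.73 ± 0.63, adjusted p = 0.003051).

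The shared chains of the gp130 family and IL4R were higher in NCI-H292. IL4R stood at 43.2 ± 3.39 TPM in NCI-H292 and 11.5 ± 2.03 in NCI-H1437 (1.87 ± 0.13, adjusted p = 5.021e-07). OSMR (1.21 ± 0.2, adjusted p = 0.0003756) and IL6ST (1.18 ± 0.21, adjusted p = 0.0006499) differed in the same direction, whereas IL6R was lower in NCI-H292 (13.1 ± 1.07 against 35 ± 0.969 TPM, -1.45 ± 0.11, adjusted p = 1.124e-06). IL20RB, a subunit of the receptors for IL-19, IL-20 and IL-24, stood at 27.9 ± 0.32 TPM in NCI-H292 and 1.63 ± 0.202 in NCI-H1437 (4.03 ± 0.19, adjusted p = 2.606e-08). IL17RB, the receptor for IL-25, went the other way, at 5.13 against 24 TPM (-2.27 ± 0.15, adjusted p = 3.987e-07).

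IL7R, the chain shared by the receptors for IL-7 and TSLP, had 0 counts in the 9 DPBS libraries of NCI-H1437 and 722 in the 4 of NCI-H292, at least 576-fold higher against a floor of 3 counts over the group (adjusted p = 5.25e-07). Its partner for TSLP, CRLF2, had 0 counts in the DPBS libraries of both lines and was not tested; it has a copy on the Y chromosome, where reads cannot be placed to 1 copy. Among interferon receptors, IFNGR1 was higher in NCI-H292 (130 against 46.4 TPM, 1.45 ± 0.11, adjusted p = 1.292e-06) and IFNLR1, the lambda interferon receptor, lower (6.89 against 13.3 TPM, -0.99 ± 0.13, adjusted p = 8.035e-05). TNFRSF10B was higher in NCI-H292 (0.92 ± 0.12, adjusted p = 6.083e-05), as was TNFRSF12A (0.76 ± 0.22, adjusted p = 0.01058), a call lost without experiment H292-1 (adjusted p = 0.1059).

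The stimuli changed between 8 and 20 of the receptors in each experiment. ALT in H1437-1 raised 8 of 38 tested and lowered 0, where 3.59% of all genes rose and 1.13% fell. Aeg-S/L raised 7 and lowered 2 of 37 in H1437-2 (3.63% and 3.1% of all genes), raised 13 and lowered 7 of 37 in H1437-3 (15.4% and 15.8%), and raised 13 and lowered 7 of 38 in H292-2 (22.1% and 21.1%). WT ALT raised 13 and lowered 5 of 38 in H1437-4 (15.8% and 17.1%), and raised 10 and lowered 5 of 38 in H292-1 (11.6% and 11.3%). The shares of receptors that rose were above those of all genes in each of the 6. The median log2 change of the tested receptors was 0.28, 0.16, 0.13, 0.06, 0.1 and 0.14 in that order of naming. The median of all genes lay between -0.03 and 0.01. The receptors were chosen with earlier results of these data known, so these shares and medians are no test of the set. In H1437-2 and H1437-1 few calls held in every fit with 1 library left out, 2 of 9 and 4 of 8, against 16 of 20 in H1437-3, 12 of 18 in H1437-4, 7 of 15 in H292-1 and 16 of 20 in H292-2. CPM refer to a library's total, whereas log2 changes use TMM scaling. Scaling to the total would shift each change under the stimuli by -0.16 (H292-2) to -0.07, and turned the direction of 0 called receptors. These are bulk samples, in which less RNA per cell and fewer cells of a kind cannot be told apart.

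**Figure D2:**
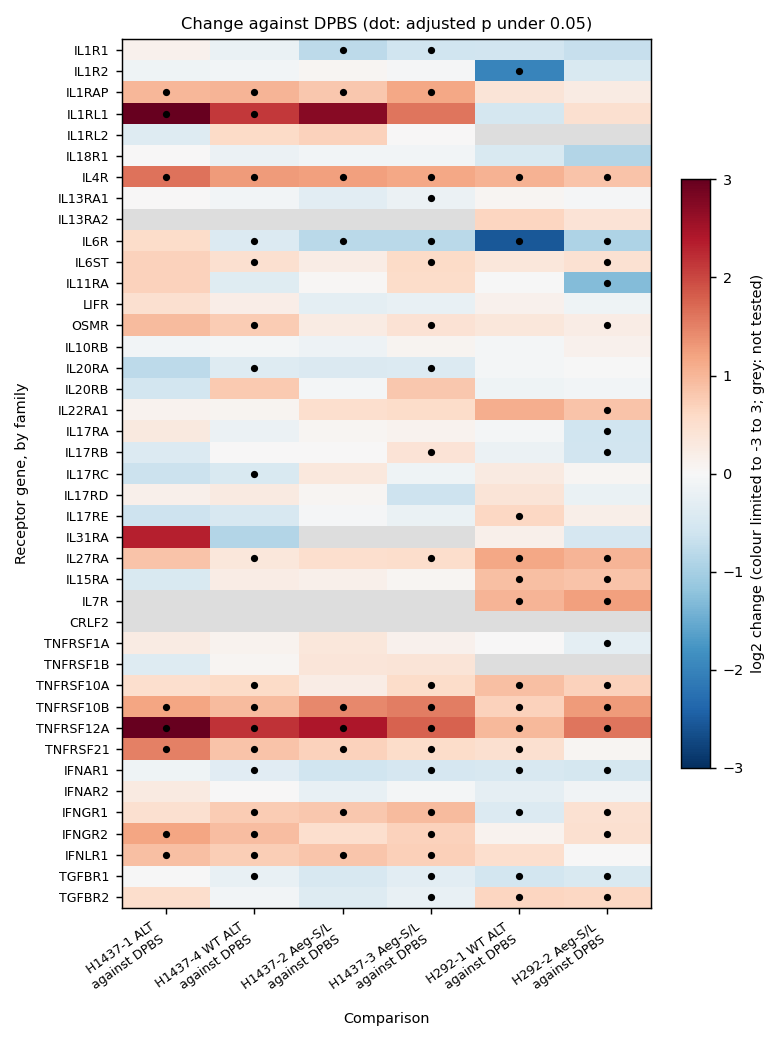
Log2 changes of the receptors under each stimulus against the DPBS of the same experiment, 1 column per experiment and 1 row per gene, with calls at an adjusted p under 0.05 marked. IL4R, TNFRSF12A and TNFRSF10B were higher in all 6 columns and IL6R was lower in 5.

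Of the TNF receptors, 3 of 6 tested rose in H1437-1 and in H1437-2, 4 of 6 in H1437-3 and H1437-4, 4 of 5 in H292-1 and 3 of 5 in H292-2. Only TNFRSF1A fell among them, in H292-2 alone. In that order of experiments, 3.59%, 3.63%, 15.4%, 15.8%, 11.6% and 22.1% of all genes rose. Some of these receptor calls were lost without 1 library, as given below. The members were chosen with earlier results of these data known, so the counts are no test of the family. IL4R, TNFRSF12A and TNFRSF10B were called higher under all 6 stimuli. TNFRSF12A (ENSG00000006327.9, hg19 chr16:3068446-3072384) encodes a small receptor, known as Fn14, that is induced by growth factors and injury. In H1437-4 its CPM were 71.9 and 62.8 in DPBS and 286 and 284 in WT ALT (2.16 ± 0.07, adjusted p = 1.263e-12), and in H1437-3 73.6 and 66.6 in DPBS and 225 and 221 in Aeg-S/L (1.77 ± 0.07, adjusted p = 9.419e-12). In H292-2 it went from 78.2 and 86.3 to 215 and 232 (1.61 ± 0.06, adjusted p = 1.285e-13), and in H292-1 from 92.1 and 108 to 183 and 180 (0.97 ± 0.13, adjusted p = 0.0005763). No treated library overlapped with a control. In H1437-1 DPBS was at 48.5, 44.5 and 25.6 and ALT at 293, 331 and 351 (3.09 ± 0.42, adjusted p = 0.00185), and in H1437-2 the change was 2.43 ± 0.33 (adjusted p = 0.0008831).

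TNFRSF10B (ENSG00000120889.8, hg19 chr8:22877646-22926692), a death receptor for TRAIL, was at 104 and 105 CPM in DPBS and 282 and 281 in Aeg-S/L in H1437-3 (1.53 ± 0.07, adjusted p = 3.191e-11), and at 182 and 171 against 380 and 378 in H292-2 (1.27 ± 0.06, adjusted p = 9.049e-13). Under WT ALT it went from 98.6 and 109 to 176 and 201 in H1437-4 (0.94 ± 0.07, adjusted p = 6.012e-08) and from 186 and 168 to 264 and 269 in H292-1 (0.7 ± 0.12, adjusted p = 0.001913). Groups did not overlap in any of these experiments. In H1437-2 the change was 1.43 ± 0.18 (adjusted p = 0.0004948). In H1437-1 it was 1.18 ± 0.24 (adjusted p = 0.01569), which was lost without ALT 1, 2 or 3 or DPBS 2 (adjusted p = 0.05437, 0.09282, 0.07917 and 0.05093).

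TNFRSF10A, the other death receptor for TRAIL, rose in H1437-3 (0.56 ± 0.08, adjusted p = 9.252e-05), H1437-4 (0.58 ± 0.08, adjusted p = 4.888e-05), H292-1 (0.91 ± 0.14, adjusted p = 0.001301) and also H292-2 (0.68 ± 0.1, adjusted p = 2.724e-05). TNFRSF21, known as death receptor 6, went from 30.5, 49.2 and 59.1 CPM in DPBS to 119, 129 and 123 in ALT in H1437-1 (1.51 ± 0.26, adjusted p = 0.006701) and rose in H1437-4 (0.85 ± 0.08, adjusted p = 4.029e-07) and H1437-3 (0.54 ± 0.07, adjusted p = 3.428e-05). Its calls in H1437-2 (0.69 ± 0.18, adjusted p = 0.04442) and H292-1 (0.47 ± 0.13, adjusted p = 0.02435) were lost without any 1 of the 4 libraries compared, with adjusted p up to 0.2867 and 0.1664. TNFRSF1A went from 123 and 115 CPM to 91.1 and 82.2 in H292-2 (-0.29 ± 0.07, adjusted p = 0.001354), lost without Aeg-S/L 2 (adjusted p = 0.05348).

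Among the receptors for type 2 cytokines, IL4R (ENSG00000077238.9, hg19 chr16:27324989-27376099) carried the change. Its CPM were 16.7, 14.3 and 15.2 in DPBS and 41, 47.5 and 47.5 in ALT in H1437-1 (1.62 ± 0.19, adjusted p = 0.0006987). Aeg-S/L took it from 24.8 and 20.5 to 45.2 and 48.7 in H1437-3 (1.15 ± 0.1, adjusted p = 2.44e-07), and WT ALT from 20.6 and 19.1 to 43.3 and 47.5 in H1437-4 (1.27 ± 0.11, adjusted p = 3.096e-07). In all 3 experiments the lowest treated library was above the highest control. NCI-H292, which began higher, went from 70.8 and 66.3 to 135 and 127 CPM under WT ALT (1.04 ± 0.11, adjusted p = 0.0001514) and from 72.4 and 70.6 to 117 and 113 under Aeg-S/L (0.85 ± 0.07, adjusted p = 1.002e-08). In H1437-2 the change was 1.23 ± 0.21 (adjusted p = 0.003779), a call that did not hold when Aeg-S/L 1 (0.06119) or DPBS 2 (0.09833) was left out. IL13RA1, its partner for IL-13, was called once, lower in H1437-3 (-0.17 ± 0.06, adjusted p = 0.0492), a call lost without DPBS 2 (adjusted p = 0.3046), Aeg-S/L 1 (0.1992) or Aeg-S/L 2 (0.1333), and without the low-count filter (0.0809).

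IL7R, tested only in NCI-H292, went from 4.35 and 5.61 to 10.6 and 10.1 CPM under Aeg-S/L (1.22 ± 0.15, adjusted p = 2.782e-06) and from 4.99 and 5.55 to 9.23 and 10.7 under WT ALT (1.03 ± 0.2, adjusted p = 0.005083), the latter lost in 2 of 4 fits that left out 1 library (adjusted p up to 0.05668). In NCI-H1437 IL7R had at most 0.104 CPM in any library. IL15RA, the IL-15 receptor alpha chain, rose in both NCI-H292 experiments (0.86 ± 0.13, adjusted p = 2.594e-05, and 0.9 ± 0.17, adjusted p = 0.003451) and was not called under any stimulus in NCI-H1437.

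In the gp130 family the ligand-binding chain IL6R was called lower in 5 of the 6 experiments. IL6ST and OSMR were called higher in 3 each and IL27RA in 4, whereas LIFR had 0 calls and IL11RA was called lower in 1. IL6R (ENSG00000160712.8, hg19 chr1:154377669-154441926), the subunit that binds IL-6, was at 59.7 and 68.4 CPM in DPBS and 33.4 and 34.2 in Aeg-S/L in H1437-3 (-0.82 ± 0.08, adjusted p = 1.202e-06). In H292-1 it was at 23.6 and 19.7 in DPBS and 3.69 and 3.21 in WT ALT (-2.54 ± 0.19, adjusted p = 8.237e-06), the steepest fall of any receptor called there. In H292-2 it was at 23.4 and 22 against 12.3 and 8.99 (-0.93 ± 0.14, adjusted p = 2.031e-05). The groups were apart in each of these 3 experiments. In H292-1 the share of mitochondrial counts also differed, at 1.02% and 0.986% in WT ALT against 2.79% and 2.51% in DPBS, 2.61% and 2.24% in aegs KO ALT, and 0.554% and 2.26% in aegl KO ALT. Its part in the results of H292-1 was not tested. In H1437-4 the fall of IL6R was smaller (-0.42 ± 0.12, adjusted p = 0.01169) and the call was lost in 2 of 4 fits without 1 library, WT ALT 1 or DPBS 1 (adjusted p up to 0.1186), and with DESeq2 (adjusted p = 0.08181). In H1437-2 the change was -0.8 ± 0.17 (adjusted p = 0.01329), lost without any 1 of the 4 libraries (adjusted p up to 0.1775). H1437-1 did not show the fall: IL6R stood at 39.9, 74.1 and 69.4 CPM in DPBS and at 70.4, 90.7 and 89.6 in ALT (0.54 ± 0.22, adjusted p = 0.2389), with the lowest value in the DPBS library that stood apart.

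IL6ST rose in H1437-3 (59.2 and 67 to 88.7 and 86.5 CPM, 0.58 ± 0.07, adjusted p = 1.514e-05), H1437-4 (0.49 ± 0.07, adjusted p = 3.905e-05) and, under Aeg-S/L, H292-2 (0.46 ± 0.06, adjusted p = 9.178e-06). OSMR, the oncostatin M receptor, rose in the same 3 experiments, by 0.44 ± 0.07 (adjusted p = 8.127e-05), 0.75 ± 0.06 (adjusted p = 1.414e-07) and 0.23 ± 0.05 (adjusted p = 0.002336). IL27RA rose by 1.17 ± 0.17 in H292-1 (7.72 and 8.91 to 18.2 and 16.4 CPM, adjusted p = 0.0008497) and 1.02 ± 0.15 in H292-2 (adjusted p = 1.343e-05), and by 0.52 ± 0.1 in H1437-3 (adjusted p = 0.001089). LIFR was not called under any of the 6 stimuli.

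Of the IL-1 receptors, the common partner IL1RAP (ENSG00000196083.5, hg19 chr3:190231840-190375843) rose in NCI-H1437. Its CPM went from 12.1 and 11.5 to 23.7 and 25.7 in H1437-3 (1.17 ± 0.1, adjusted p = 3.01e-07) and from 13.7 and 13.6 to 27.5 and 25.3 in H1437-4 (1.03 ± 0.11, adjusted p = 2.529e-06). Its calls in H1437-1 (0.99 ± 0.24, adjusted p = 0.04246) and H1437-2 (0.82 ± 0.2, adjusted p = 0.03081) were less firm. The first was lost without ALT 1, 2 or 3 or DPBS 2 (adjusted p = 0.1096, 0.1995, 0.1483 and 0.1075), and the second without any 1 of its 4 libraries (adjusted p up to 0.2876). In NCI-H292, IL1RAP changed by 0.24 ± 0.1 (H292-2, adjusted p = 0.05596) and 0.38 ± 0.15 (H292-1, adjusted p = 0.09175) and was not called. IL1R1 fell in H1437-3, from 30.9 and 30.1 to 20.1 and 17.4 CPM (-0.6 ± 0.1, adjusted p = 0.0001659), and in H1437-2 (-0.79 ± 0.17, adjusted p = 0.0187), where the call was lost without any 1 of the 4 libraries (adjusted p up to 0.2023). IL1RL1 was near the limit of detection: WT ALT in H1437-4 took it from 0.295 and 0.355 to 1.72 and 0.952 CPM (2.11 ± 0.63, adjusted p = 0.01691), a call lost without WT ALT 1 (0.2091), DPBS 1 (0.1124) or DPBS 2 (0.08244).

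**Figure D3:**
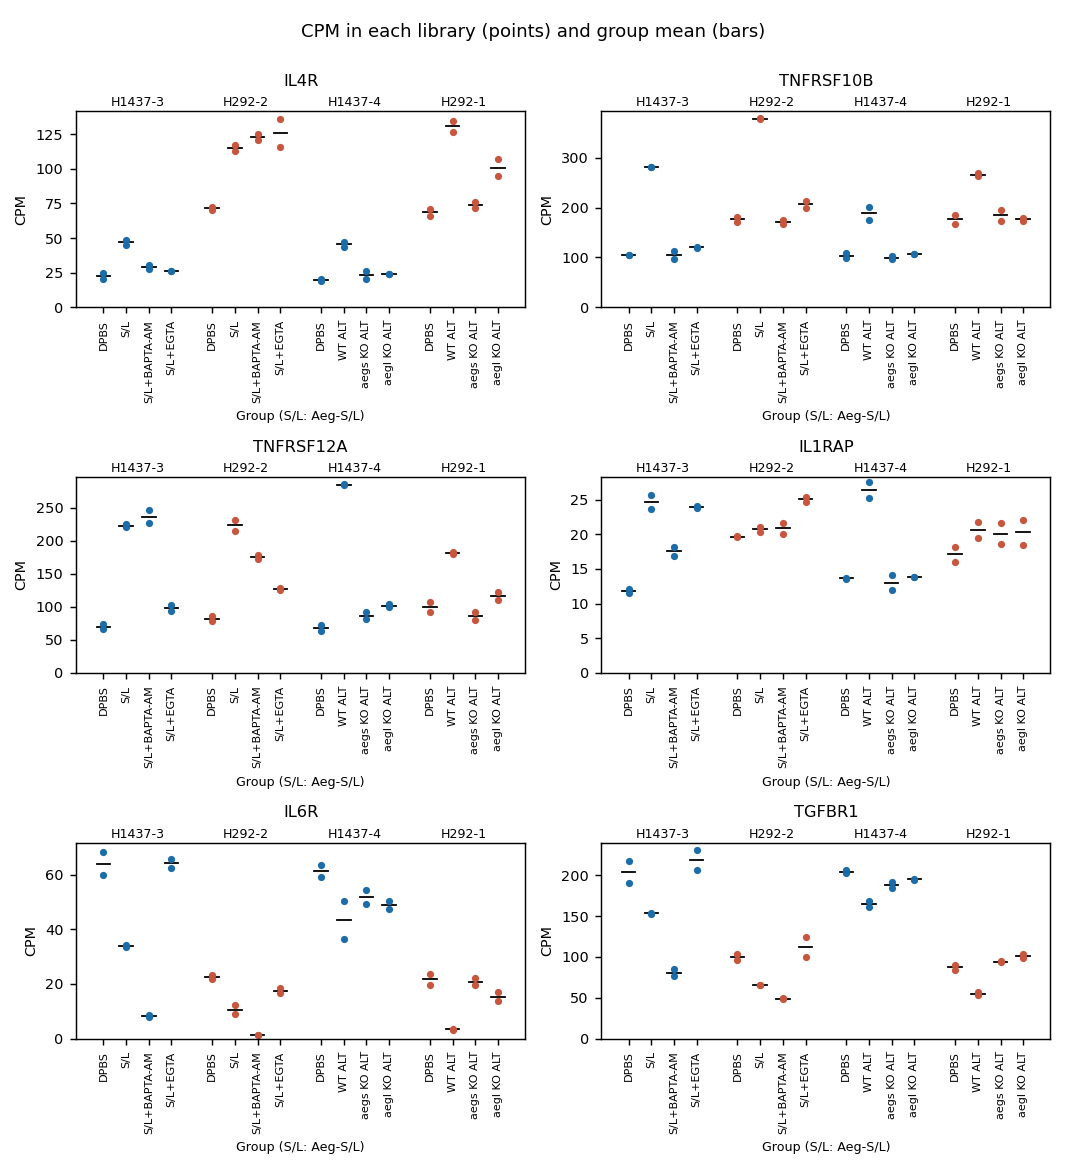
CPM of single libraries for IL4R, TNFRSF12A, TNFRSF10B, IL1RAP, IL6R and TGFBR1, 1 point per library, by group and experiment. IL6R in H292-1 is at 3.69 and 3.21 in WT ALT and at or above 13.6 in the other 6 libraries.

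Both chains of the interferon gamma receptor and the lambda receptor rose in NCI-H1437, while IFNAR1, a chain of the type I receptor, fell in both lines. IFNGR1 went from 36.5 and 35.1 to 70.5 and 58.8 CPM in H1437-3 (0.96 ± 0.09, adjusted p = 3.488e-07) and rose in H1437-4 (0.75 ± 0.08, adjusted p = 3.687e-06) and H292-2 (0.46 ± 0.06, adjusted p = 4.062e-06). In H292-1 it was lower in WT ALT, at 67.7 and 71.1 against 103 and 98.4 CPM (-0.42 ± 0.12, adjusted p = 0.03023), a call lost without any 1 of the 4 libraries (adjusted p up to 0.231). IFNGR2 rose in H1437-1 from 8.78, 8.18 and 8.75 to 19.1, 18.5 and 18.3 CPM (1.18 ± 0.19, adjusted p = 0.0045). It also rose in H1437-4 (0.92 ± 0.14, adjusted p = 8.25e-05), H1437-3 (0.68 ± 0.11, adjusted p = 0.0001602) and H292-2 (0.48 ± 0.1, adjusted p = 0.0009518).

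IFNLR1 rose in H1437-4 (0.73 ± 0.13, adjusted p = 0.0003284) and H1437-3, from 19.7 and 19.3 to 29.6 and 30.5 CPM (0.72 ± 0.1, adjusted p = 2.618e-05). Its calls in H1437-1 (0.9 ± 0.21, adjusted p = 0.03663) and H1437-2 (0.84 ± 0.18, adjusted p = 0.01831) were lost in 5 of 6 and 4 of 4 fits that left out 1 library, of which the former held only without DPBS 1 (adjusted p up to 0.1778 and 0.2929). IFNAR1 fell from 81.6 and 75.2 to 49.6 and 47.5 CPM in H292-2 (-0.53 ± 0.08, adjusted p = 1.336e-05) and from 37.3 and 45 to 24.4 and 29.3 in H1437-3 (-0.51 ± 0.1, adjusted p = 0.001105). Its calls in H1437-4 (-0.33 ± 0.09, adjusted p = 0.009544) and H292-1 (-0.48 ± 0.11, adjusted p = 0.01167) were lost in 2 of 4 and 3 of 4 such fits, the latter without DPBS 2, WT ALT 1 or WT ALT 2 (adjusted p up to 0.07173 and 0.1277). IFNAR2 was not called.

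The TGF-beta receptors moved in opposite directions in NCI-H292, where TGFBR1 fell and TGFBR2 rose, and not in NCI-H1437. TGFBR1, the type I kinase, fell from 191 and 217 to 153 and 154 CPM in H1437-3 (-0.31 ± 0.07, adjusted p = 0.003214) and from 104 and 96.5 to 65.6 and 65.1 in H292-2 (-0.45 ± 0.08, adjusted p = 0.0002249), and also in H1437-4 (-0.23 ± 0.06, adjusted p = 0.004318). Its fall in H292-1 (-0.55 ± 0.11, adjusted p = 0.006786) was lost without DPBS 2, WT ALT 1 or WT ALT 2 (adjusted p up to 0.101). TGFBR2, the type II kinase that binds the ligand, rose in H292-2 from 47.7 and 50.2 to 68.4 and 66.9 CPM (0.63 ± 0.08, adjusted p = 2.263e-06) and in H292-1 (0.64 ± 0.11, adjusted p = 0.002949, lost without WT ALT 2, 0.056). In H1437-3 TGFBR2 was lower (-0.23 ± 0.07, adjusted p = 0.02155), a call lost without DPBS 1, Aeg-S/L 1 or Aeg-S/L 2 (adjusted p up to 0.1084).

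IL-17 and IL-10 family receptors had few calls. IL17RA had 1 in the 6 comparisons, in H292-2 (19.4 and 20.5 to 12.5 and 11.3 CPM, -0.59 ± 0.12, adjusted p = 0.0006306). IL17RB was higher in H1437-3 (0.4 ± 0.1, adjusted p = 0.006745) and lower in H292-2 (-0.58 ± 0.23, adjusted p = 0.04425). The first call was lost in 2 of 4 and the second in 4 of 4 fits without 1 library (adjusted p up to 0.0663 and 0.2405), and the second also with DESeq2 (adjusted p = 0.06644). IL20RA was called lower in H1437-3 (-0.42 ± 0.11) and H1437-4 (-0.39 ± 0.11), each lost in 1 of 4 such fits. IL17RC, IL17RE, IL22RA1, IL11RA and IL1R2 had 1 call each, and all 5 calls were lost in at least 2 of 4 such fits. The receptors without a call were IL18R1, IL1RL2, LIFR, IL31RA, IL10RB, IL20RB, IL17RD, IFNAR2, TNFRSF1B and IL13RA2, of which IL1RL2, IL31RA, TNFRSF1B and IL13RA2 were tested in some experiments only, and CRLF2 was tested in none.

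Whether a stimulus acted differently in the lines was tested as the difference of the changes, NCI-H292 minus NCI-H1437. Under Aeg-S/L (H292-2 against H1437-3) 2 receptors of 40 had a higher and 9 a lower change in NCI-H292, where 7.48% of all genes were higher and 6.82% lower. Under WT ALT (H292-1 against H1437-4) 3 were higher and 7 lower of 40, against 4.2% and 4.7% of all genes. IL1RAP (-0.91 ± 0.14, adjusted p = 8.267e-05) and IFNLR1 (-0.71 ± 0.17, adjusted p = 0.00551) had the smaller change in NCI-H292 under Aeg-S/L, and TGFBR2 (0.88 ± 0.11, adjusted p = 2.582e-06) and IL15RA (0.82 ± 0.18, adjusted p = 0.00295) the larger. Under WT ALT, TGFBR2 again differed upwards (0.68 ± 0.13, adjusted p = 0.003497), and TNFRSF12A (-1.22 ± 0.16, adjusted p = 9.172e-05), IFNGR1 (-1.21 ± 0.15, adjusted p = 6.415e-05) and IL6R (-2.16 ± 0.24, adjusted p = 1.851e-05) downwards. All of these calls held in each fit without 1 library. Under Aeg-S/L the differences for TNFRSF12A (-0.15 ± 0.1, adjusted p = 0.3682), IL6R (-0.09 ± 0.16, adjusted p = 0.79) and IL4R (-0.29 ± 0.12, adjusted p = 0.1245) were not called. Line and experiment coincide here, and their parts cannot be told apart.

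**Figure D4:**
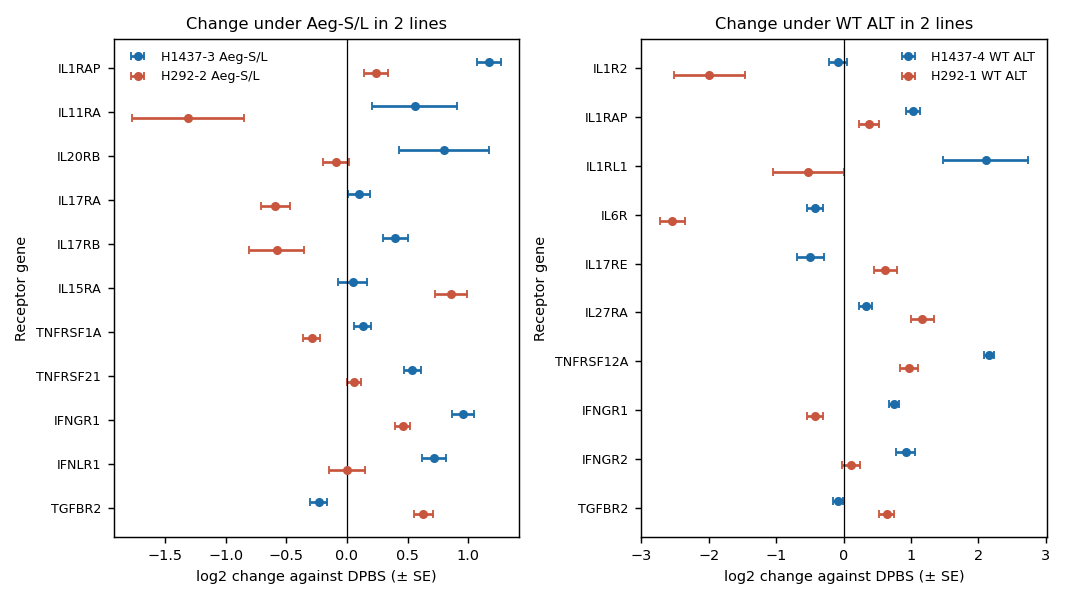
Log2 changes against DPBS ± standard error in NCI-H1437 and NCI-H292, shown side by side for each receptor called in the test of the difference. Panels are for Aeg-S/L (H1437-3 and H292-2) and for WT ALT (H1437-4 and H292-1). The change of IL1RAP is smaller in NCI-H292 in both panels, and that of IL6R far lower there for WT ALT.

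Experiments within NCI-H1437 that used Aeg-S/L, or an extract of the mould, were compared in the same way. The extract is labelled ALT in H1437-1 and WT ALT in H1437-4, so extract and experiment cannot be told apart there. For Aeg-S/L in H1437-3 against H1437-2, 0 receptors of 38 differed (0 at an unadjusted p under 0.05), where 0% of all genes were higher and 0% lower. For WT ALT in H1437-4 against ALT in H1437-1, 0 of 38 differed (3 at an unadjusted p under 0.05), where 0.00567% of all genes were higher and 0% lower. DESeq2 also called 0 receptors in both. A lack of calls does not show that the experiments were alike. The DPBS libraries of H1437-1 were spread widely, with TGFBR1 at 82.8, 207 and 231 CPM, so differences could have gone unseen. IL6R, called lower with WT ALT in H1437-4, was not lower with ALT in H1437-1, and this difference was not called.

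Aeg-S and Aeg-L alone, in H1437-2, gave no call: 0 of 37 receptors rose or fell with either by edgeR, with 5 and 0 at an unadjusted p under 0.05, and 0 by DESeq2. Of all genes, 0% rose and 0% fell with Aeg-S, and 0% and 0% with Aeg-L. TNFRSF12A stood at 45.1 and 37.3 CPM in DPBS, 29.1 and 17.3 in Aeg-S, 30.6 and 71.4 in Aeg-L, and 216 and 197 in Aeg-S/L. IL4R stood at 22.4 and 18.2 in DPBS, 17.7 and 18.2 in Aeg-S, 15.5 and 22 in Aeg-L, and 45.2 and 43.7 in Aeg-S/L. The Aeg-S/L libraries lay above every library of DPBS and of the single proteins for both genes. The libraries of Aeg-S correlated with each other at 0.968 (log counts) and those of Aeg-L at 0.970, against 0.980 to 0.983 in the other groups. Smaller changes with the single proteins could thus have gone unseen. The share of mitochondrial counts was 5.66% in the library Aeg-S 2, the highest value of the experiment, and its part was not tested.

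With the extracts labelled aegs KO ALT and aegl KO ALT at most 1 receptor was called against DPBS by edgeR, though in H292-1 some stood above DPBS with aegl KO ALT. In H1437-4, 1 of 38 rose and 0 fell with aegs KO ALT (0.138% and 0.945% of all genes), and 1 rose and 0 fell with aegl KO ALT (0.168% and 0.598%). The receptor was TNFRSF12A both times, at 92.1 and 81.5 CPM in aegs KO ALT and 100 and 104 in aegl KO ALT against 71.9 and 62.8 in DPBS. Its changes were 0.37 ± 0.07 (adjusted p = 0.02343) and 0.6 ± 0.07 (adjusted p = 0.00162). The first was lost without aegs KO ALT 1 (0.4238), aegs KO ALT 2 (0.08847) or DPBS 2 (0.39), and the second without aegl KO ALT 1 (adjusted p = 0.06343). In H292-1, 0 of 38 rose or fell with either extract by edgeR, with 0 and 11 at an unadjusted p under 0.05 and 0 and 3 calls by DESeq2. Of all genes there, 0% rose and 0% fell with aegs KO ALT, and 0.0963% rose and 0.0241% fell with aegl KO ALT. Among the 11, IL4R stood at 94.7 and 107 CPM in aegl KO ALT, between DPBS (70.8 and 66.3) and WT ALT (135 and 127), with a change of 0.56 ± 0.11 against DPBS (adjusted p = 0.1356). TNFRSF10A was at 40.6 and 34.9 CPM in aegl KO ALT, overlapping with WT ALT (40.1 and 39.5) and above DPBS (25 and 20.9), with a change of 0.72 ± 0.14 against DPBS (adjusted p = 0.1196). TNFRSF21 was at 111 and 107, above both DPBS (72 and 76.9) and WT ALT (95.4 and 95.3), with a change of 0.56 ± 0.13 against DPBS (adjusted p = 0.1783). TGFBR2 was at 55.7 and 60.2, above DPBS (43.6 and 43.6) and just under WT ALT (60.4 and 64.9), with a change of 0.42 ± 0.11 against DPBS (adjusted p = 0.2196).

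Set against WT ALT, the knockout extracts had 11 to 17 receptors called. In H1437-4, 1 receptor was higher and 12 lower of 38 with aegs KO ALT (15.7% and 14.2% of all genes), and 4 were higher and 13 lower with aegl KO ALT (16.2% and 14.5%). In H292-1, 5 were higher and 9 lower with aegs KO ALT (13.2% and 13.4%), and 4 and 7 with aegl KO ALT (9.85% and 9.13%). These comparisons share the WT ALT libraries with the stimulus comparison. TNFRSF12A was lower by -1.79 ± 0.07 and -1.56 ± 0.07 in H1437-4 (adjusted p = 1.176e-11 and 7.159e-11), and by -1.21 ± 0.13 and -0.75 ± 0.13 in H292-1 (adjusted p = 0.0001306 and 0.00286), with aegs KO ALT first in each pair. IL4R was lower by -1.03 ± 0.11 and -1.0 ± 0.11 in H1437-4 (adjusted p = 3.772e-06 and 5.006e-06). In H292-1 it was lower by -0.94 ± 0.11 (adjusted p = 0.0002668) and -0.48 ± 0.11 (adjusted p = 0.01398), the latter lost without aegl KO ALT 1 (0.07246), WT ALT 1 (0.1521) or WT ALT 2 (0.08881). IL1RAP was lower in H1437-4, by -1.09 ± 0.11 and -1.0 ± 0.11 (adjusted p = 1.667e-06 and 4.444e-06), and was not called in H292-1. In H292-1, TNFRSF10A, which WT ALT had raised there, was not called with aegl KO ALT against WT ALT (-0.18 ± 0.14, adjusted p = 0.4044). IL17RA, IL22RA1 and IFNLR1 were called with aegl KO ALT against WT ALT there, and not with WT ALT against DPBS. IL17RA was higher, at 23.1 and 19.9 CPM against 13.9 and 13.8 in WT ALT and 15.4 and 15.7 in DPBS (0.52 ± 0.15, adjusted p = 0.03654), and IFNLR1 lower, at 5.51 and 7.13 against 11.9 and 10.5 in WT ALT and 9.34 and 7.7 in DPBS (-0.93 ± 0.18, adjusted p = 0.006016). The call of IL17RA was lost without aegl KO ALT 1, WT ALT 1 or WT ALT 2 (adjusted p up to 0.2071), as was that of IL22RA1 (adjusted p up to 0.2809), and that of IFNLR1 without WT ALT 1 (0.06992). IL6R in H292-1 was higher, at 22.1 and 19.7 CPM in aegs KO ALT and 17.2 and 13.6 in aegl KO ALT against 3.69 and 3.21 in WT ALT (2.48 ± 0.19, adjusted p = 9.617e-06, and 2.05 ± 0.19, adjusted p = 4.42e-05).

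With Tra added, no receptor that ALT had raised was called against DPBS by edgeR. The DPBS libraries of H1437-1 were spread widely, so this does not show that levels were equal. In H1437-1, ALT plus Tra against DPBS gave 0 calls of 38 by edgeR (9 at an unadjusted p under 0.05, and 3 calls by DESeq2), where 0.123% of all genes were higher and 0.16% lower. Against ALT, 0 were higher and 9 lower (1.33% and 3.75% of all genes). This comparison shares the ALT libraries with that of ALT against DPBS, which favours a fall in receptors picked as raised there. TNFRSF12A was at 65.5, 27.3 and 20.9 CPM with Tra, overlapping with DPBS and far below ALT (-3.18 ± 0.43 against ALT, adjusted p = 0.001898). IL4R stood at 13.9, 11.8 and 14.1 CPM with Tra, below every DPBS library (-1.85 ± 0.19 against ALT, adjusted p = 0.0002689). TNFRSF21 was lower by -2.08 ± 0.26 (adjusted p = 0.001136) and IFNGR2 by -1.35 ± 0.19 (adjusted p = 0.002437).

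The 9 also held 2 receptors that ALT itself had not moved past the threshold. TNFRSF10A was at 15.1, 11.2 and 11.5 CPM with Tra, 40, 35.5 and 35.8 with ALT and 20.2, 36.1 and 26.9 in DPBS (-1.64 ± 0.22 against ALT, adjusted p = 0.001964). IL6R was at 34.2, 31 and 35.7 with Tra (-1.39 ± 0.23 against ALT, adjusted p = 0.005782), below the DPBS libraries at 39.9, 74.1 and 69.4. Against DPBS these values gave -1.14 ± 0.22 for TNFRSF10A (adjusted p = 0.0746) and -0.85 ± 0.22 for IL6R (adjusted p = 0.1774). Without the library DPBS 1, which stood apart, 2 receptors were called lower with ALT plus Tra against DPBS, where 0 were with it.

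Tra set against Aeg-S/L, in H1437-2, gave 0 receptors higher and 1 lower of 37 by edgeR (0.124% and 1.15% of all genes), and 1 higher and 6 lower by DESeq2. Without the low-count filter edgeR called 3 lower. The Aeg-S/L libraries are shared with the stimulus comparison here too. Whether Tra acted differently on ALT and on Aeg-S/L was not tested. Aeg-S/L plus Tra against DPBS gave 0 of 37 by edgeR (2 at an unadjusted p under 0.05, and 1 call by DESeq2), where 0.478% of all genes were higher and 0.0177% lower. TNFRSF10B was the receptor edgeR called, at 107 and 124 CPM against 240 and 241 in Aeg-S/L and 97.8 and 93.4 in DPBS (-1.12 ± 0.18, adjusted p = 0.006552). The call was lost without any 1 of the 4 libraries (adjusted p up to 0.2252). TNFRSF12A stood at 98.3 and 90.1 CPM, between Aeg-S/L (216 and 197) and DPBS (45.1 and 37.3), with a change against Aeg-S/L of -1.19 ± 0.32 (adjusted p = 0.1301). IL4R stood at 23.4 and 25.5 against 45.2 and 43.7 (-0.92 ± 0.2, adjusted p = 0.05393).

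**Figure D5:**
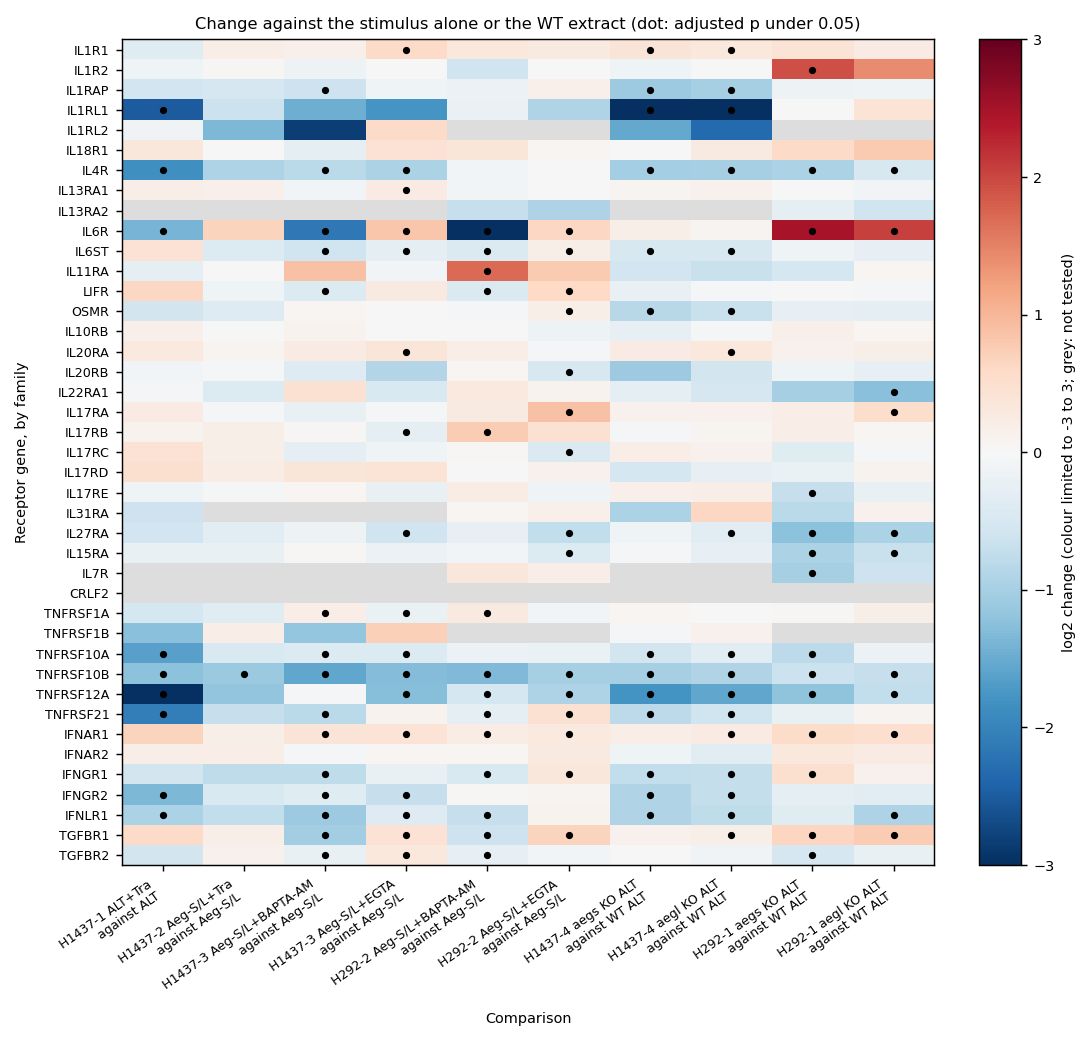
Log2 changes of the receptors, 1 column per comparison, with calls at an adjusted p under 0.05 marked. Columns show Tra, BAPTA-AM or EGTA against the stimulus without the addition. Further columns show aegs KO ALT and aegl KO ALT against WT ALT in both lines. TNFRSF10B was lower in all 6 columns with Tra, BAPTA-AM or EGTA. IL6R was lower with BAPTA-AM and higher with EGTA in both lines.

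With the calcium chelators 14 to 17 receptors were called against the stimulus, and 22 and 18 differed between BAPTA-AM and EGTA. In H1437-3, Aeg-S/L with BAPTA-AM against Aeg-S/L gave 2 receptors higher and 13 lower of 37 (11.6% and 16.1% of all genes), and with EGTA 7 higher and 10 lower (15.8% and 14.8%). In H292-2 BAPTA-AM gave 4 higher and 10 lower of 38 (17.6% and 20.3%), and EGTA 9 higher and 6 lower (23.2% and 21.7%). These comparisons share the Aeg-S/L libraries with the stimulus comparison. Against DPBS, Aeg-S/L with BAPTA-AM left 10 higher and 9 lower in H1437-3 (15% and 19.1%) and 11 higher and 7 lower in H292-2 (17.6% and 19%), and with EGTA 6 higher and 0 lower (4.19% and 0.988%) and 15 higher and 4 lower (20.1% and 14.4%). BAPTA-AM set against EGTA gave 7 higher and 15 lower in H1437-3 (16.7% and 21.1%) and 7 higher and 11 lower in H292-2 (21.9% and 24.7%).

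The share of mitochondrial counts was low with BAPTA-AM. It was 1.15% and 0.796% with BAPTA-AM in H1437-3, against 1.98% to 3.45% in the other libraries of the experiment, and 0.19% and 0.217% in H292-2, against 1.06% to 2.41%. Its part in the results with BAPTA-AM was not tested. IL6R showed the largest difference between the chelators among receptors at 1 CPM or more. In H1437-3 it stood at 8.73 and 8.03 CPM with BAPTA-AM and 65.7 and 62.6 with EGTA, where DPBS was at 59.7 and 68.4 and Aeg-S/L at 33.4 and 34.2. In H292-2 it stood at 1.36 and 1.43 with BAPTA-AM and 18.5 and 16.6 with EGTA, where DPBS was at 23.4 and 22 and Aeg-S/L at 12.3 and 8.99. BAPTA-AM thus lay below Aeg-S/L in both lines and EGTA above it, with no overlap. The changes against Aeg-S/L were -2.14 ± 0.09 (adjusted p = 3.328e-11) and -3.11 ± 0.18 (adjusted p = 3.904e-11) with BAPTA-AM, and 0.84 ± 0.08 (adjusted p = 1.344e-06) and 0.61 ± 0.14 (adjusted p = 0.00145) with EGTA, the last lost without Aeg-S/L 2 (adjusted p = 0.05914). Between BAPTA-AM and EGTA the difference was -2.98 ± 0.09 in H1437-3 (adjusted p = 3.326e-12) and -3.71 ± 0.18 in H292-2 (adjusted p = 2.755e-12).

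TGFBR1 followed the same order. In H1437-3 it was at 191 and 217 CPM in DPBS, 153 and 154 in Aeg-S/L, 77.1 and 84.7 with BAPTA-AM and 231 and 207 with EGTA. Against Aeg-S/L it changed by -1.05 ± 0.07 (adjusted p = 9.767e-09) with BAPTA-AM and by 0.43 ± 0.07 (adjusted p = 0.0002545) with EGTA. In H292-2 the changes were -0.61 ± 0.09 (adjusted p = 1.188e-05) and 0.66 ± 0.08 (adjusted p = 3.278e-06). LIFR fell with BAPTA-AM against DPBS in both lines (-0.64 ± 0.12, adjusted p = 0.0004344, and -0.56 ± 0.1, adjusted p = 0.0001709) and with EGTA rose in H292-2 (0.47 ± 0.1, adjusted p = 0.0007658).

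Among receptors the stimulus had raised, TNFRSF10B stood near the control level with either chelator in H1437-3, at 96.7 and 113 CPM with BAPTA-AM and 121 and 119 with EGTA against 104 and 105 in DPBS. Against Aeg-S/L the changes were -1.55 ± 0.07 (adjusted p = 2.572e-11) and -1.31 ± 0.07 (adjusted p = 4.249e-10), and in H292-2 -1.33 ± 0.06 (adjusted p = 3.393e-13) and -0.99 ± 0.06 (adjusted p = 5.341e-11). TNFRSF12A separated the chelators: with BAPTA-AM in H1437-3 it was at 227 and 247 CPM, as high as the 225 and 221 of Aeg-S/L (-0.04 ± 0.07, adjusted p = 0.7355), and with EGTA at 103 and 93.4 (-1.27 ± 0.07, adjusted p = 1.072e-09). In H292-2 both lowered it, by -0.53 ± 0.06 (adjusted p = 8.313e-07) with BAPTA-AM and -0.93 ± 0.06 (adjusted p = 5.188e-10) with EGTA.

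IL4R fell with both chelators in H1437-3, to 27.6 and 30.5 CPM with BAPTA-AM (-0.82 ± 0.1, adjusted p = 8.219e-06) and 26.1 and 25.9 with EGTA (-0.94 ± 0.1, adjusted p = 3.355e-06). In H292-2 it was at 121 and 125 with BAPTA-AM and 136 and 116 with EGTA, overlapping with or above the 117 and 113 of Aeg-S/L (-0.09 ± 0.07, adjusted p = 0.3489, and 0.01 ± 0.07, adjusted p = 0.8919). Whether the chelators' effect on IL4R differed between the lines was not tested. IL1RAP in H1437-3 was lower with BAPTA-AM, at 16.9 and 18.2 CPM (-0.62 ± 0.1, adjusted p = 0.0001833), and with EGTA stood at 24.1 and 23.8, beside the 23.7 and 25.7 of Aeg-S/L (-0.13 ± 0.1, adjusted p = 0.3723). IFNLR1 was lower with BAPTA-AM in both lines (-1.1 ± 0.1, adjusted p = 2.345e-07, and -0.69 ± 0.15, adjusted p = 0.001179). In H1437-3 it stood at 14.9 and 15.7 CPM with BAPTA-AM, under the DPBS libraries at 19.7 and 19.3.

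TNFRSF21 and IFNGR1 lay highest with EGTA in H292-2. TNFRSF21 was at 117 and 125 CPM with EGTA, 82.1 and 81.2 in Aeg-S/L and 89.4 and 85.5 in DPBS (0.45 ± 0.06 against Aeg-S/L, adjusted p = 9.201e-06). IFNGR1 was at 143 and 148 with EGTA, 106 and 103 in Aeg-S/L and 87 and 87.7 with BAPTA-AM (0.35 ± 0.06 against Aeg-S/L with EGTA, adjusted p = 7.192e-05, and -0.45 ± 0.06 with BAPTA-AM, adjusted p = 5.249e-06). IL17RA, lowered by Aeg-S/L in that line, was at 26.1 and 21 with EGTA against 12.5 and 11.3 (0.87 ± 0.12, adjusted p = 8.745e-06). IL7R was at 16 and 13.7 CPM with BAPTA-AM and 12.3 and 13.5 with EGTA, all above the 10.6 and 10.1 of Aeg-S/L, and was not called against it. Against DPBS it rose by 1.55 ± 0.15 (adjusted p = 1.306e-07) and 1.42 ± 0.15 (adjusted p = 6.241e-07).

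Ligands and signalling partners of these receptors also moved with the stimuli. Of 45 ligand genes, 17 to 22 were tested, and 6, 5, 13, 11, 9 and 15 rose while 1, 1, 1, 1, 3 and 2 fell in H1437-1, H1437-2, H1437-3, H1437-4, H292-1 and H292-2. In that order, 3.59%, 3.63%, 15.4%, 15.8%, 11.6% and 22.1% of all genes rose and 1.13%, 3.1%, 15.8%, 17.1%, 11.3% and 21.1% fell, and the counts of the next lists stand beside the same shares. IL6, the ligand of IL6R, went from 0 counts in DPBS to 119 CPM in H1437-3, at least 2680-fold (adjusted p = 3.443e-15), and from a mean of 0.657 to 94.7 CPM in H292-2 (log2 change 7.33, adjusted p = 1.033e-16), where IL6R fell. IL1A, which encodes interleukin-1 alpha, rose by 6.9 on the log2 scale in H1437-3 (adjusted p = 5.407e-12) and 4.9 in H292-2, from 32.6 to 867 CPM. IL20, a ligand of the receptors that hold IL20RB, rose by 6.42 and 4.8 (adjusted p = 2.109e-08 and 4.373e-11).

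Inhibitors and adaptors gave smaller sets. Of 7 SOCS genes tested, 1, 2, 3, 2, 3 and 4 rose and 0, 0, 0, 1, 0 and 1 fell in that order of experiments, with SOCS3, an inhibitor of gp130 signalling, called in all 6 (log2 changes 2.97, 3.99, 4.11, 3.31, 1.91 and 3.58). Of 12 TNF receptor adaptors, 3, 3, 7, 6, 4 and 6 rose and 0, 2, 3, 3, 2 and 3 fell. In H292-2 CASP8, the protease that death receptors activate, fell by 1.64 on the log2 scale (38.8 to 11.1 CPM, adjusted p = 6.038e-10) and BIRC3, an inhibitor of apoptosis, rose by 1.71 (adjusted p = 2.305e-10), while the death receptors TNFRSF10A and TNFRSF10B rose. IRAK2, an adaptor kinase of IL-1 receptors, rose in H1437-3 by 2.96 (adjusted p = 1.473e-10) and in H292-2 by 1.1 (adjusted p = 1.24e-05). Among 20 other cytokine receptors tested in H1437-3, 3 rose and 5 fell, where 15.4% of all genes rose and 15.8% fell. Among these, TNFRSF10D, a decoy for TRAIL, rose by 0.8 (42.5 to 69 CPM, adjusted p = 1.606e-06).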

How the data were processed

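Gene counts of 51 RNA-seq libraries were used as deposited by the authors. Per the labels, the kit was NEBNext Ultra RNA, with no strand marking. Alignment to hg19 used HISAT2 2.2.1 and SAMtools and counting featureCounts 2.0.2, per the submitters' processing notes, with the strand setting not given in the sources used here. Gene lengths for TPM came from the deposited tables' length column. In the H292-2 table, whose name gives ALT where labels give Aeg-S/L, BAPTA-AM columns lack Aeg-S/L in their names and were taken as the Aeg-S/L+BAPTA-AM samples. No count column was left unused (0). Gene symbols matched 51996 of 57820 IDs. Among 30 pairs of libraries of a group, chi-square per degree of freedom was at least 4.02 (median 16.2), so none was a copy.

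Counts were tested per experiment in edgeR 4.0.16 under R 4.3.3 (filterByExpr, TMM, 1 coefficient per group, quasi-likelihood F test, Benjamini-Hochberg over all genes, threshold 0.05). A standard error is the size of a log2 change over the root of its F value. The lines' baselines were compared over DPBS counts summed per experiment, and differences between experiments in joint fits. CPM are counts scaled to 1e+06 per library. Receptors called, at 1 CPM or more in the higher group and without overlap between libraries are given with full statistics, and genes of other lists only where they also lie among the 3 largest changes of their list. TNFRSF10D and the other receptors, ligands and adaptors come from such lists. In H1437-1, DPBS and ALT plus Tra libraries with the same number deviated together (correlations of their deviations 0.44, 0.11 and 0.35), a pairing taken from the data. The members and lists were chosen with earlier results of these data known.

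Alternatives were DESeq2 1.42.0, DESeq2 size factors in edgeR, no low-count filter, the replicate number as a block, and leaving out each library in turn. Where that left 1 library in a group, it was assumed to vary like the others. In simulated counts with 100 genes changed by a log2 of 1 and 100 by 2, 27% and 82% were recovered for ALT in H1437-1 (15912 genes, 6 false of 115 calls), 77% and 84% for Aeg-S/L in H1437-3 (16435 genes, 26 false of 187), 67% and 87% for WT ALT in H292-1 (16217 genes, 17 false of 171), 66% and 77% for the difference under Aeg-S/L (17729 genes, 9 false of 152) and 63% and 86% for the baseline (18528 genes, 8 false of 157). Mouse libraries were not analysed here. The value of 1 marker gene is not reported here.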

Additional observations from a re-analysis of the deposited data

Results flagged for a closer look

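The change of 18 receptors differed between NCI-H292 and NCI-H1437 in a test of the difference itself (edgeR, joint fit of both experiments, log2 change in NCI-H292 minus that in NCI-H1437), with 21 calls, since 3 receptors were called under both stimuli. Each line's experiment is also a separate experiment, so line and experiment cannot be told apart.

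Under Aeg-S/L (H292-2 against H1437-3) the change was higher in NCI-H292 for TGFBR2 (0.88) and IL15RA (0.82). It was lower for IL17RB (-0.97), IL1RAP (-0.91), IL20RB (-0.87), IFNLR1 (-0.71), IL17RA (-0.67), IFNGR1 (-0.48), TNFRSF21 (-0.46) and TNFRSF1A (-0.41). IL11RA had the largest value (-1.85) at about 1 to 2 CPM in DPBS. The calls of IL11RA and IL20RB were lost in 7 of 8 and 5 of 8 fits without 1 library (adjusted p up to 0.1716 and 0.2329), and the other 9 held in all 8.

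Under WT ALT (H292-1 against H1437-4) it was higher for IL17RE (1.07), IL27RA (0.8) and TGFBR2 (0.68), and lower for IL1RL1 (-2.66), IL6R (-2.16), IL1R2 (-1.94), TNFRSF12A (-1.22), IFNGR1 (-1.21), IFNGR2 (-0.84) and IL1RAP (-0.68). IL6R, TNFRSF12A, IFNGR1 and TGFBR2 held in all 8 fits without 1 library. IL1RAP was lost in 7, IL1RL1 and IL17RE in 6, IFNGR2 in 4, and IL1R2 and IL27RA in 2 (adjusted p up to 0.1584 for IL1RAP, 0.1544 for IL1RL1, 0.103 for IL17RE, 0.09793 for IFNGR2, 0.1139 for IL1R2 and 0.07166 for IL27RA). TGFBR2 and IL1RAP were called under both stimuli with the same sign, and so was IFNGR1.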

How the results depend on the processing

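Counts of called receptors changed by over 1.5 times in the comparisons named here, among them 3 of the 6 of a stimulus with DPBS, and no called receptor reversed under an alternative; the causes were not tested. For ALT plus Tra against DPBS in H1437-1 the count of 0 became 3 with DESeq2 and 5 without the low-count filter. In H1437-2, Aeg-S against DPBS went from 0 to 1 without the filter, Aeg-S/L plus Tra against DPBS from 0 to 1 with DESeq2 and 1 without the filter, and against Aeg-S/L from 1 to 7 with DESeq2 and 3 without the filter. In H1437-4, aegs KO ALT against DPBS went from 1 to 2 with DESeq2 and aegl KO ALT from 1 to 3 without the filter, and in H292-1 aegl KO ALT against DPBS from 0 to 3 with either. Leaving out 1 library gave 4 to 8 (8 in all) for ALT in H1437-1, 0 to 2 for ALT plus Tra against DPBS, 0 to 3 for Aeg-S and 2 to 3 (from 9) for Aeg-S/L in H1437-2, 0 to 0 (from 1) for Aeg-S/L plus Tra against Aeg-S/L, and 11 to 15 (from 17) for EGTA against Aeg-S/L in H1437-3. It gave 0 to 1 for each knockout extract against DPBS in H1437-4, 7 to 10 (from 15) for WT ALT in H292-1, 7 to 16 (from 14) and 5 to 12 (from 11) for aegs KO ALT and aegl KO ALT against WT ALT there, and 5 to 8 (from 10) for the difference between lines under WT ALT. Counts for the other comparisons stayed within 1.5 times under these settings.

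In H1437-1, correlations of the deviations of same-numbered libraries ran from -0.13 to 0.04 for the pairs of groups other than DPBS and ALT plus Tra. The other experiments had 2 libraries a group, whose deviations mirror each other. Both replicate numbers then give the same correlation, and whether libraries were paired cannot be judged. The values there ran from -0.09 to 0.09 in H1437-2, -0.00 to 0.04 in H1437-3 and -0.04 to 0.04 in H1437-4. They ran from -0.06 to 0.23 in H292-1 (the highest for DPBS and aegs KO ALT) and -0.06 to 0.03 in H292-2. With the replicate number as a replicate block, 8 receptors were called for ALT in H1437-1 (8 without), 0 for ALT plus Tra against DPBS (0), 6 for Aeg-S/L in H1437-2 (9), 16 for WT ALT in H292-1 (15) and 13 for the difference under Aeg-S/L (11). With 2 libraries a group and receptors such as IL1RL1, IL1RL2, IL13RA2, IL31RA and TNFRSF1B at about 1 CPM or less, changes of these genes were mostly not detectable at this depth.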
